A study of Mus musculus with 18 samples.

Results

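The proneural and neuronal differentiation factors are transcription factors that start and carry forward the making of neurons. Their 9 genes, Neurog1, Neurog2, Neurod1, Neurod2, Neurod4, Neurod6, Nhlh1, Nhlh2 and Insm1, were taken by gene symbol from the 55335 genes listed for every library, and each symbol named 1 gene. They were followed by single-nucleus RNA sequencing of the forebrain of E14 mouse embryos, in combinatorially barcoded libraries. All embryos came from the MYT1L S710fsX line, in which a frameshift lies in the gene of the neuronal transcription factor Myt1l. WT embryos carried no mutated allele, Het embryos carried it on 1 chromosome and KO embryos on both. All came from crosses of heterozygous parents on a C57BL/6J background, taken from 3 litters, sexes were mixed, and the mutation was germline, so every cell type carried it. Each genotype had 3 embryos, and each embryo had libraries of 2 runs. The titles name the runs without saying what a run was. The runs of an embryo were summed, so that n is 3 embryos per genotype and 9 in all.

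Most of these factors share a basic helix-loop-helix domain, with which they pair with ubiquitous E-proteins and bind the short DNA motif known as the E-box. Neurogenins act first, in radial glia and intermediate progenitors of the pallium, the dorsal forebrain that makes excitatory neurons, where Notch signalling through Hes1 and Hes5 holds them in check. The Neurod and Nhlh factors follow in newborn neurons, and the zinc-finger factor Insm1 promotes the step from radial glia to intermediate progenitors. Inhibitory neurons come from the subpallium, the ventral forebrain.

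The genes are small, and with GENCODE vM21 on GRCm38 their identifiers matched those of the count tables. Neurog1 (chr13:56250478-56252163, minus strand) and Insm1 (chr2:146221921-146225020, plus strand) have a single exon. Neurog2 lies at chr3:127633135-127635631 on the plus strand and Nhlh2 at chr3:102010076-102015492, also on the plus strand. Neurod1 (chr2:79452521-79456751), Neurod2 (chr11:98325415-98329648), Neurod4 (chr10:130268152-130280240), Neurod6 (chr6:55677822-55681263) and Nhlh1 (chr1:172052292-172057573) are on the minus strand. Neurod1 is the only one of the 9 that overlaps another annotated gene. It shares bases with Cerkl on its own strand and with Gm26755 on the other, so reads of Neurod1 and of these neighbours may not be fully separated.

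The promoters of 4 members are shown because these genes stand at successive steps of the excitatory order described further on. Each sequence is the 250 bases upstream of the start site given by RefSeq on GRCm38.p6, read 5′ to 3′ on the strand of the gene. Capitals mark the E-box letters CANNTG, which read the same on both strands. The positions are chr3:127632886-127633135 for Neurog2 (plus), chr2:79456637-79456886 for Neurod1 (minus), chr11:98329646-98329895 for Neurod2 (minus) and chr6:55681264-55681513 for Neurod6 (minus).
Neurog2: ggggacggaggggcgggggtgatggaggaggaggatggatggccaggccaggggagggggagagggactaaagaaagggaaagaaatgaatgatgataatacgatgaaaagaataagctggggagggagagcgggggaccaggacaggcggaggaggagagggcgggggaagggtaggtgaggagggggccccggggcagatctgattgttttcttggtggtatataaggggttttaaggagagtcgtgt
Neurod1: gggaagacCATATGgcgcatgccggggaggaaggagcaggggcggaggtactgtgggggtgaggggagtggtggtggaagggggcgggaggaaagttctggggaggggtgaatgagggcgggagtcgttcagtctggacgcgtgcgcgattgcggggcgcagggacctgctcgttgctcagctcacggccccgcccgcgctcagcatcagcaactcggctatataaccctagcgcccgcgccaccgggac
Neurod2: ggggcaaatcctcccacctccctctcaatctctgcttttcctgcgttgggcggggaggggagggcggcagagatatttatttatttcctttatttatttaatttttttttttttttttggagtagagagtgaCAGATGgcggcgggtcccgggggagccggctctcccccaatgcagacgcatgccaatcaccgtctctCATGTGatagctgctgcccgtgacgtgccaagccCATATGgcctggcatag
Neurod6: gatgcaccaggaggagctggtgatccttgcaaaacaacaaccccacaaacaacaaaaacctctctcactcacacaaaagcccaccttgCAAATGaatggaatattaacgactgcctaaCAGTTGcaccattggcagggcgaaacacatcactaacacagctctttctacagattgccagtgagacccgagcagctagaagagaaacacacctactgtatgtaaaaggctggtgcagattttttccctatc

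A promoter was at hand for 8 of the 9 members, Insm1 being the other. The Neurod2 promoter held 3 E-boxes, those of Neurod6 and Nhlh2 held 2, those of Neurod1 and Nhlh1 held 1, and none was in the windows of Neurog1, Neurog2 or Neurod4. Of 32851 promoters of this length, 66.2% held at least 1 CANNTG. The form CAGATG, searched on both strands and contained in CANNTG, was present once in the promoters of Neurod2, Nhlh1 and Nhlh2, and in 14.4% of all promoters. The letters AAGTT, the core that Myt1l is known to bind, were found on either strand in the promoter of Neurod1 and in 1 of the 2 listed for Neurod4, against 35.3% of all promoters.

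After filtering, 194372 nuclei remained of 261143 barcodes, with 14780 to 26079 nuclei and 42757865 to 73779876 unique molecular identifiers (UMIs) per embryo. Of the 257403 distinct barcodes before filtering, 3740 occurred in more than 1 library. Run 1 gave 3221 to 5628 of the kept nuclei per embryo and run 2 gave 11261 to 21592. Run 1 alone is therefore the smaller part of the data. Median UMIs per nucleus were 2707 to 4102 in run 1 and 1862 to 2800 in run 2. Clusters were formed without the 9 members and named from marker genes. They gave 30688 pallial radial glia, 17834 excitatory intermediate progenitors, 62658 excitatory neurons, 12993 subpallial radial glia, 6913 inhibitory progenitors, 49330 inhibitory neurons, 2010 Cajal-Retzius cells and 370 cells of choroid plexus and roof. Another 11576 nuclei (5.96%) lay in clusters left without a name, and entered no named class, pseudotime or genotype test. The KO 1 embryo contributed few subpallial nuclei, with 603 radial glia and 342 inhibitory progenitors. Myt1l RNA in excitatory neurons was at 1891, 2177 and 2061 CPM (UMIs of a gene per 1000000 UMIs of the nuclei summed) in WT, 2168, 2414 and 2340 CPM in Het and 2481, 2772 and 2539 CPM in KO. The KO embryos were the highest, with a log2 change of 0.37 (95% interval 0.20 to 0.54) that was not called (edgeR adjusted p = 0.0512). A frameshift need not lower the RNA, so these values do not check the genotypes.

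Levels of the members along the classes are described first, in CPM over each embryo's summed nuclei of a class, and without a test, since the classes were made from the same nuclei. All 9 had higher levels in excitatory intermediate progenitors than in inhibitory neurons in every embryo, and Insm1 alone was also high on the inhibitory side. The neurogenins were highest in intermediate progenitors. Neurog2, the main neurogenin of the cortex, had 184 ± 21.8 CPM there (mean ± SD over the 9 embryos, lowest 139, highest 210), and pallial radial glia followed at 58.7 ± 7.0 CPM (48.6 to 71.7). Its mean in excitatory neurons was 16.9 CPM, and in the 370 cells of choroid plexus and roof it was 54.6 ± 33.6 CPM, with embryos spread from 13.6 to 126 CPM. Neurog1, its relative, was sparse, with 17.9 ± 4.0 CPM in intermediate progenitors (11.5 to 24.2) and 2.73 CPM in pallial radial glia (2.16 to 3.31), and these ranges did not overlap. Neurod4, a factor of newly forming neurons, was highest in intermediate progenitors at 8.47 ± 1.3 CPM (6.52 to 10.4). That value rests on 388.5 UMIs over all embryos, and Neurog1 on 814.

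Neurod1, which acts as progenitors leave division, was highest in intermediate progenitors at 116 ± 9.0 CPM (106 to 133) and lower in excitatory neurons at 51.1 ± 4.3 CPM (46.0 to 56.9). Neurod2, which acts in the maturation of cortical neurons, showed the opposite order. Its level was 402 ± 34.1 CPM in excitatory neurons (348 to 464) and 166 ± 11.2 CPM in intermediate progenitors (153 to 183). Neurod6, a factor of postmitotic pyramidal neurons, had 163 ± 15.3 CPM in excitatory neurons (130 to 180) and 135 ± 9.4 CPM in intermediate progenitors (116 to 144), and these ranges overlapped.

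Nhlh1 and Nhlh2, a pair of closely related neuronal helix-loop-helix factors, parted in Cajal-Retzius cells, the early reelin-secreting neurons of the cortical surface. Nhlh2 reached 287 ± 19.5 CPM there (261 to 317), and every embryo lay above the range of intermediate progenitors at 24.2 ± 3.1 CPM (19.7 to 28.9). Nhlh1 had 25.2 ± 9.6 CPM in Cajal-Retzius cells (8.89 to 37.5) and 24.3 ± 3.3 CPM in intermediate progenitors (19.3 to 29.4), which could not be ordered. In excitatory neurons the means were 5.87 CPM for Nhlh1 and 9.79 CPM for Nhlh2.

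Insm1 had its highest values in both progenitor classes, 93.0 ± 13.1 CPM in inhibitory progenitors (73.3 to 112) and 89.0 ± 9.7 CPM in excitatory intermediate progenitors (68.9 to 102), with overlapping ranges. Subpallial radial glia held 54.6 ± 5.6 CPM (43.7 to 62.5), above pallial radial glia at 29.3 ± 3.5 CPM (25.1 to 35.0). Excitatory neurons, at 32.0 ± 3.7 CPM, overlapped with pallial radial glia, and inhibitory neurons were lower at 13.0 ± 1.1 CPM.

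**Figure D1:**
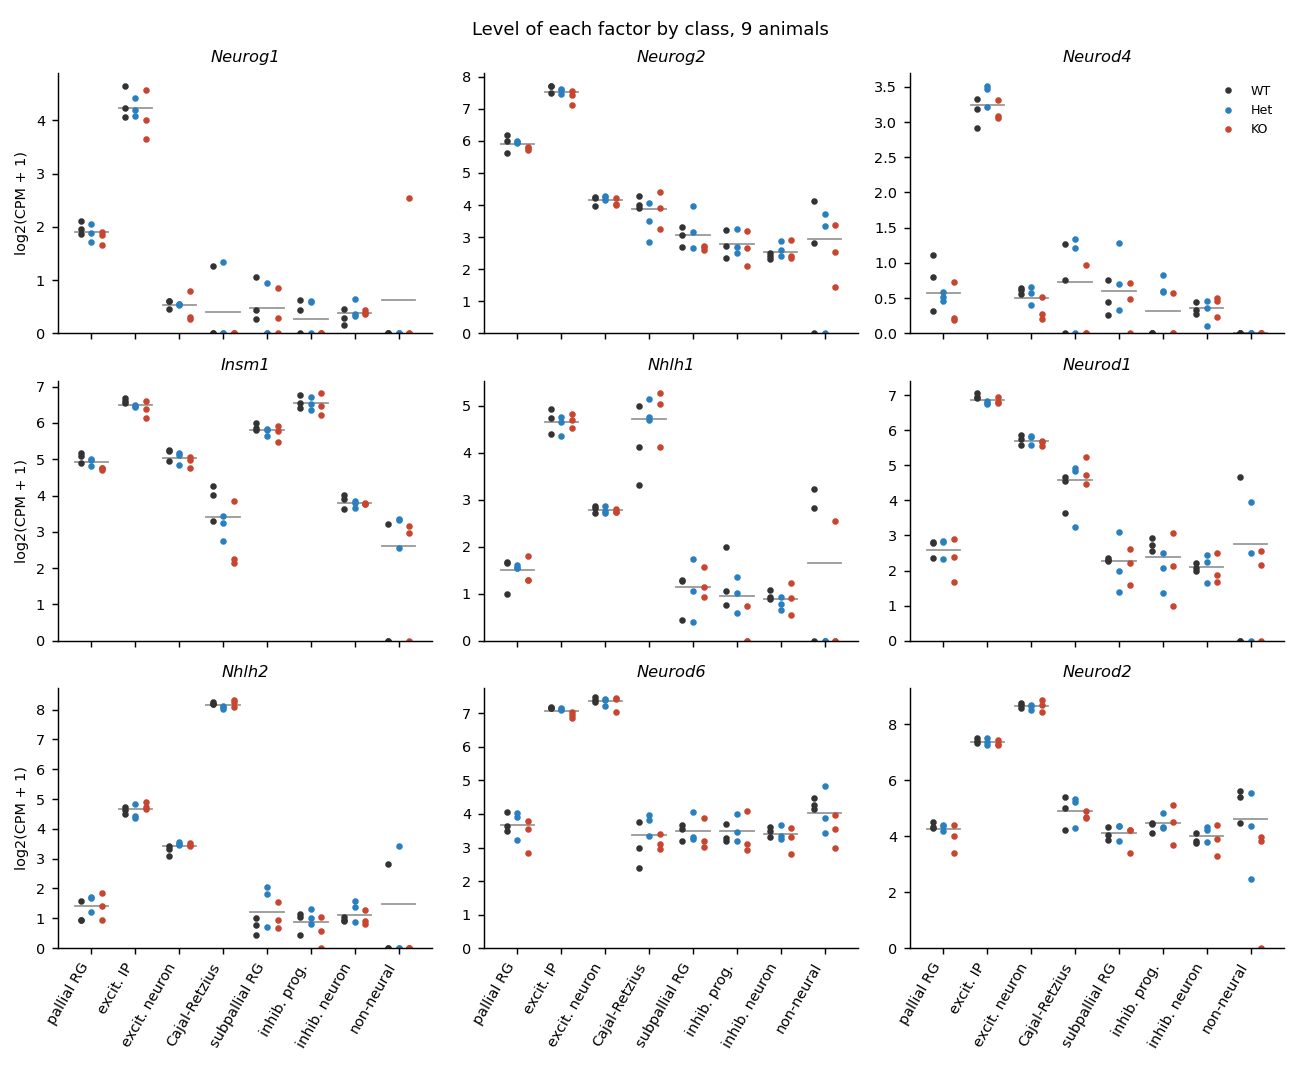
Levels of the 9 members by cell class as log2(CPM + 1), with 1 point per embryo coloured by genotype and a line at the mean. Neurog2 and Neurod1 stand highest in excitatory intermediate progenitors, Neurod2 in excitatory neurons, Nhlh2 in Cajal-Retzius cells, and Insm1 in both progenitor classes.

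In inhibitory neurons, the low counts of the other members were set against a cluster of 689 non-neural nuclei led by microglial and mural genes, which should lack them. Neurog2 had 4.86 CPM in inhibitory neurons against 6.66 CPM in the non-neural cluster, Neurod1 had 3.29 against 5.76 CPM, Neurod2 had 15.02 against 23.3 CPM and Neurod6 had 9.51 against 15.5 CPM. These are 2.64%, 2.83%, 3.74% and 5.82% of each gene's own level in its highest excitatory class, and were read as background. The non-neural values are rough, since they rest on 12.25, 9.5, 39 and 27 UMIs over all embryos. Neurog1, Nhlh1, Nhlh2 and Neurod4, at 0.304, 0.861, 1.15 and 0.281 CPM in inhibitory neurons, had only 1, 3, 3 and 0 UMIs in the non-neural cluster, too few to compare. Insm1 was different, with 13.0 CPM in inhibitory neurons (11.3 to 15.1) and 5.15 CPM in the non-neural cluster (0 to 9.23). The latter rests on 10 UMIs.

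Within classes, the levels differed between clusters. Among pallial radial glia, a cluster led by mitotic genes such as Depdc1a and Bub1 had 34.9 ± 5.3 CPM of Neurog2 (25.9 to 41.8), and a cluster without such leading genes, led by Lrp4 and Gas1, had 110 ± 16.4 CPM (79.1 to 132). Insm1 in the same clusters was at 22.1 CPM and 63.5 ± 8.9 CPM, so both genes were higher in the Gas1 cluster in every embryo. The remaining cluster of the class, led by Ltbp1 and Tnc and also without mitotic leading genes, had 63.1 ± 8.1 CPM of Neurog2 (53.5 to 79.0), between the others, and 14.02 ± 2.6 CPM of Insm1 (11.2 to 17.6), the lowest. Among intermediate progenitors, the cluster led by cell cycle genes was set beside the one led by Eomes, the T-box gene of these cells. Insm1 was higher in the cycling cluster, at 133 ± 16.6 CPM (108 to 153) against 73.0 ± 10.3 CPM (51.0 to 85.8). Neurod1 went the other way, at 63.7 ± 11.0 CPM (44.8 to 80.5) against 136 ± 14.4 CPM (120 to 160). Nhlh2 followed Neurod1, at 5.95 CPM (2.39 to 9.27) against 30.8 CPM (25.0 to 36.1). Neurod2 differed less, with means of 153 and 171 CPM, as did Neurod6, with 127 and 138 CPM.

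Excitatory neuron clusters held unequal shares of these factors. Neurod1 ranged from 104 CPM in the cluster led by Unc5d, a gene of young upper-layer neurons, to 5.42 CPM in the cluster where it was lowest. Neurod2 was highest in the same Unc5d cluster, at 554 CPM, and lowest at 205 CPM in a cluster led by Tfap2d and Sim1. Neurod6 had 223 and 46.3 CPM in this pair of clusters. Insm1 was at 32.2 CPM in 1 inhibitory neuron cluster and at 7.59 to 12.8 CPM in the others.

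Likeness was measured as Pearson's r of log2(CPM + 1) over 27 clusters, among 10937 genes, as a description in which all genes share the same libraries and depths. Neurog2 was most like Eomes (r = 0.95), followed by the dorsal homeobox gene Emx1 (0.92). Neurog1 and Neurod4 were also most like Eomes, with r of 0.84 and 0.86. Neurod1 was most like Cerkl (0.96), the gene that overlaps it, and then Slc17a6 (0.92), which encodes a vesicular glutamate transporter. Neurod2 was most like Slc17a7 (0.97), another glutamate transporter gene, and Neurod6 was most like Itprid1 (0.96). The leading genes were Abhd16a for Nhlh1 (0.87), Slc22a15 for Nhlh2 (0.86) and Ubp1 for Insm1 (0.88). Between members, Neurod2 and Neurod6 were closest (0.98), Neurod1 and Nhlh1 had 0.83, Neurog1 and Neurog2 had 0.80, and Nhlh1 and Nhlh2 had 0.79.

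The order from radial glia to neurons was then followed along a diffusion pseudotime, computed without the members and split into 20 bins of 5559 nuclei. A member's position is its CPM-weighted mean bin in an embryo. Bins 1 to 5 were 96.7% to 99.8% radial glia, bins 7 and 8 were 97.7% and 98.8% intermediate progenitors, and bin 10 was 91.3% neurons. Median UMIs per bin ran from 2143 to 3559. On the excitatory side the factors followed each other in the order Neurog1, Neurog2, Neurod4, Insm1, Nhlh1, Neurod1, Nhlh2, Neurod6, Neurod2. The mean positions of the earliest were 6.86 ± 0.28 for Neurog1, 7.30 ± 0.10 for Neurog2 and 7.86 ± 0.22 for Neurod4. Neurog2 came before Neurod4 in 9 of 9 embryos with no overlap, and Neurog1 before Neurog2 in 8 of 9 with overlap. Insm1, at 9.32 ± 0.14, and Nhlh1, at 9.49 ± 0.26, were not separable, since Nhlh1 was later in 5 of 9 embryos. Neurod1, at 10.6 ± 0.13, and Nhlh2, at 10.8 ± 0.22, were not separable either, with Nhlh2 later in 6 of 9. Neurod6, at 12.8 ± 0.22, and Neurod2, at 13.4 ± 0.13, closed the order, Neurod2 being later in 9 of 9 embryos although the ranges overlapped.

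The bins show how these positions arise. Neurog2 stood at 35.5 CPM in bin 1 and 95.6 CPM in bin 5, and peaked at 243 ± 26.5 CPM in bin 7, where Eomes also peaked. Neurod1 peaked 2 bins later, at 214 ± 18.5 CPM in bin 9. Neurod6 peaked in bin 10 at 214 CPM and Neurod2 in bin 11 at 567 ± 41.0 CPM. Neurod2 remained at 301 CPM in bin 20, whereas Neurod1 had returned to 4.73 CPM there. The other peaks were in bin 7 for Neurog1 (28.5 CPM), bin 8 for Neurod4 (12.4 CPM) and Nhlh1 (33.7 CPM), and bin 9 for Nhlh2 (42.3 CPM). Insm1 had more than a single maximum. It peaked at 120 ± 13.9 CPM in bin 7, was at 39.9 CPM in bin 9, stood at 56.4 ± 11.0 CPM in bin 13 and ended at 9.99 CPM, which places its mean position later than its peak. Among their antagonists, Hes1 peaked in bin 1 (bins 1 to 5 in single embryos) and Hes5 in bin 4. Of the genes known to act after the members, the Notch ligand gene Dll1 and the cell cycle exit gene Btg2 peaked in bin 6. The Notch ligand gene Dll3 peaked in bin 8. Rnd2, a known Neurog2 target in migrating neurons, peaked in bin 11 and Tbr1, a deep-layer factor, in bin 20.

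**Figure D2:**
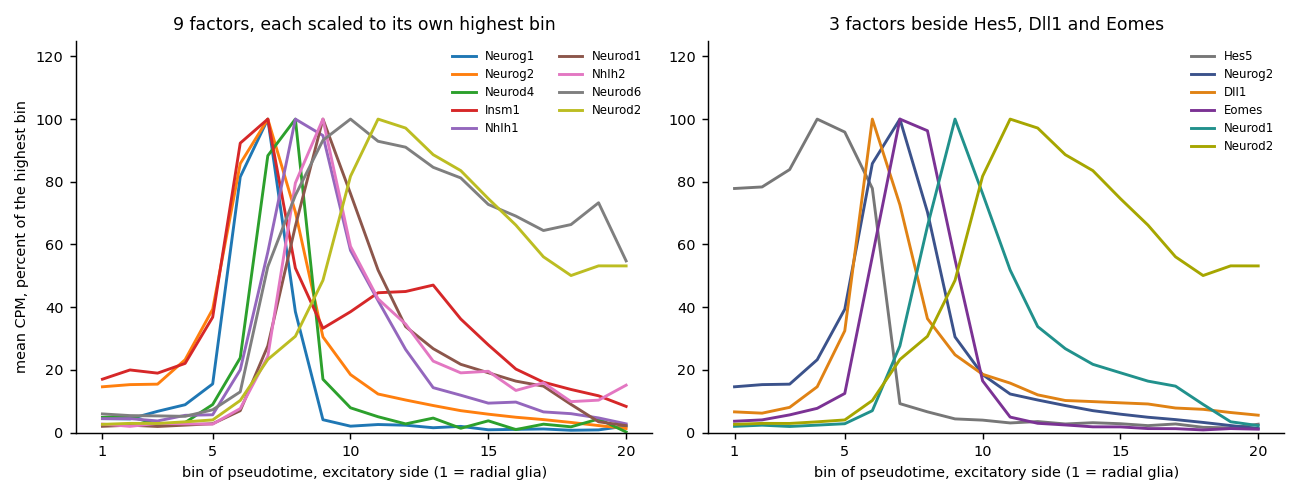
Profiles along the excitatory side over 20 bins of pseudotime, as mean CPM of 9 embryos in percent of each gene's highest bin. The left panel holds the 9 members and the right panel Neurog2, Neurod1 and Neurod2 beside Hes5, Dll1 and Eomes. Neurog2 peaks in bin 7, Neurod1 in bin 9 and Neurod2 in bin 11, and Insm1 has another, lower maximum at bin 13.

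On the inhibitory side, with 3461 to 3462 nuclei per bin, Insm1 was the one member with a clear course. It was at 27.1 CPM in bin 1 and at 133 ± 15.4 CPM in bin 4, the peak bin in all 9 embryos, and ended at 7.37 CPM in bin 20. Its mean position was 6.39 ± 0.23. The Notch ligand gene Dll1 peaked in the same bin at 150 CPM, as did Dll3 at 130 CPM and Hes6, a neurogenic Hes-family gene, at 83.6 CPM. Neurog2, Neurod1, Neurod2 and Neurod6 stayed near background throughout, their highest bin being 1.92-, 2.16-, 1.88- and 2.51-fold the lowest, and no order was read for them.

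**Figure D3:**
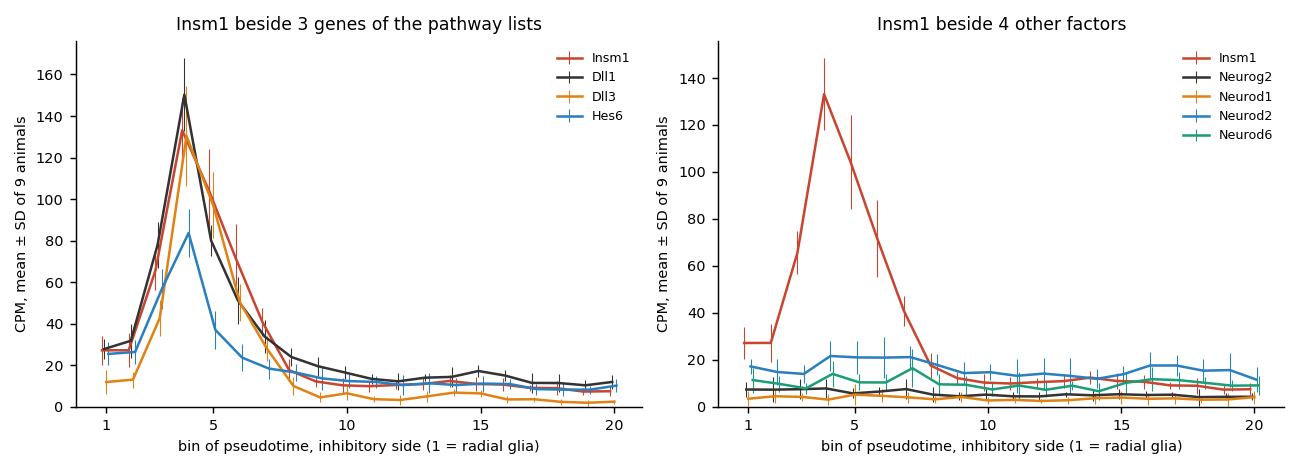
Profiles along the inhibitory side over 20 bins of pseudotime, as CPM (mean, bars for the SD of 9 embryos), with Insm1 beside Dll1, Dll3 and Hes6 on the left and beside 4 other members on the right. Insm1 peaks in bin 4 together with Dll1, Dll3 and Hes6, and the 4 other members stay near background.

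The genotype comparison asked whether the Myt1l mutation changed these factors in any class. The member counts were summed per embryo and tested with edgeR's quasi-likelihood test across all genes of a class, with Benjamini-Hochberg adjustment and a call at an adjusted p under 0.05 and a log2 change beyond 0.2. No member was called. In KO against WT, 0 of 48 pairs of member and class passed, where 0.204% of 106621 gene and class pairs did. Before adjustment, 6 of 48 had p under 0.05, 5 of them lower in KO, against 5.83% of all pairs. DESeq2 called 0 of the 48 (0.419% of all pairs), with 3 under the unadjusted limit (3.19% of all pairs). In Het against WT, 0 of 48 passed (background 0%), 2 had an unadjusted p under 0.05 (2.73% of all pairs), and DESeq2 called 0 (0% of all pairs). By class, the share of all genes called by edgeR in KO was 0.909% in excitatory neurons, 0.415% in Cajal-Retzius cells, 0.0268% in inhibitory neurons and 0% in the others. Embryos were also compared within replicate numbers, with the number as a block in the fit. The calls over all genes in KO then went from 177 to 1283 in excitatory neurons, from 36 to 105 in Cajal-Retzius cells and from 5 to 196 in inhibitory neurons. No member was called, where 1.45% of all pairs in KO were. Without a test of the levels, KO embryos lay above or below every WT embryo in 4 of 48 pairs and Het embryos in 5. Among 48543 pairs of gene and class with at least 20 CPM, 10.9% in KO and 7.95% in Het were apart in the same way. Part of the 48 pairs did not reach that level. The log2 change was below 0 for 34 of the 48 pairs in KO and 25 in Het, against 50.8% and 50.7% of all pairs, with no test of these counts.

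In pallial radial glia, Insm1 was at 35.0, 29.0 and 33.2 CPM in WT, 27.0, 31.4 and 30.5 CPM in Het and 25.1, 26.1 and 26.3 CPM in KO. The KO embryos lay below every WT embryo, as 3.3% of 7311 genes did in this class. The log2 change was -0.30 (95% interval -0.51 to -0.10), with an edgeR adjusted p of 1.00, and was -0.04 with run 1 alone. Neurod2 in the same class was at 22.1, 19.2 and 18.6 CPM in WT, 20.1, 17.4 and 19.6 CPM in Het and 20.1, 9.56 and 15.04 CPM in KO. These levels are no higher than the mean of 23.3 CPM in the non-neural cluster, KO 2 was the lowest, and KO 1 lay within the WT range. Its log2 change of -0.45 (-0.86 to -0.03) was not called (edgeR adjusted p = 1.00), and was -0.20 without KO 2 and -0.68 without KO 1. In intermediate progenitors Insm1 was at 93.3, 96.0 and 102 CPM in WT, 86.9, 88.4 and 86.0 CPM in Het and 68.9, 83.0 and 96.2 CPM in KO. There, KO overlapped WT, and Het lay below WT with no overlap (4.41% of genes were lower in this way). Each KO embryo was below the WT embryo of its own number, in 3 of 3. The share of all genes that went one way in all numbers was not counted for levels. Such directions, named here for a few pairs only, are therefore not read as results. The KO log2 change of Insm1 with the block was -0.21 (edgeR adjusted p = 0.637, 0.0149 before adjustment, where 9.77% of all pairs were under 0.05).

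Neurog2 in intermediate progenitors was at 210, 180 and 209 CPM in WT, 195, 175 and 190 CPM in Het and 139, 173 and 187 CPM in KO. The lowest value was that of KO 1, and the groups overlapped. Each KO embryo was below the WT embryo of its number, again with no share over all genes at hand and not read as a result. The KO log2 change was -0.24 (95% interval -0.44 to -0.04), with an edgeR adjusted p of 1.00 (0.592 with the block), and -0.13 without KO 1. Neurod6 in the same cells was at 141, 142 and 144 CPM in WT, 138, 136 and 142 CPM in Het and 116, 124 and 132 CPM in KO. All KO embryos were lower than WT (4.36% of genes), with a log2 change of -0.18 (-0.32 to -0.03) that was not called and was -0.34 with run 1 alone. Neurod1 in these progenitors was at 121, 122 and 133 CPM in WT and 106, 109 and 114 CPM in Het, with no overlap, and a Het log2 change of -0.18 (-0.34 to -0.02) that was not called and was 0.07 with run 1 alone.

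In excitatory neurons the intervals for the 3 most abundant members included 0. The KO log2 change was 0.03 (95% interval -0.17 to 0.22) for Neurod2, -0.07 (-0.29 to 0.15) for Neurod6 and -0.08 (-0.28 to 0.12) for Neurod1, in a class where 177 of 19476 genes were called. Insm1 was at 30.01, 36.8 and 36.3 CPM in WT, 27.8, 34.7 and 33.7 CPM in Het and 26.0, 32.3 and 30.7 CPM in KO. The groups overlapped. Insm1 was lower in each KO embryo than in the WT embryo of its number, which is not read as a result, with no share over all genes at hand. Its KO log2 change was -0.19 (-0.44 to 0.06, edgeR adjusted p = 0.547), and with the block it was -0.19 with an adjusted p of 0.0570, the smallest of any member in any class and alternative. It was -0.29 without WT 1 and -0.11 without KO 1. Nhlh2 was at 9.10, 7.57 and 9.82 CPM in WT, 10.9, 10.1 and 10.3 CPM in Het and 10.6, 9.82 and 10.03 CPM in KO. Het and KO lay above every WT embryo, in KO by a margin that does not show in 3 digits. The log2 changes, 0.26 in Het (0.03 to 0.48) and 0.23 in KO (0.01 to 0.46), were not called. Without the upper limits on UMIs and genes the Het value was 0.05, with run 1 alone the KO value was 0.05, and without WT 2 they were 0.17 and 0.14. Among genes of at least 20 CPM, a level Nhlh2 did not reach, 4.87% in Het and 10.4% in KO were higher with no overlap. Neurod4 had a log2 change of -1.05 in KO (-1.89 to -0.21, edgeR adjusted p = 0.264), from 76.4 UMIs over all embryos, and its KO embryos lay below WT, as 10.8% of genes of at least 20 CPM did.

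On the inhibitory side, the KO log2 change of Insm1 was -0.10 (95% interval -0.35 to 0.15) in subpallial radial glia and -0.01 (-0.30 to 0.28) in inhibitory progenitors. Neurod1 in inhibitory progenitors, at background levels, was lower in Het with no overlap. Among genes of at least 20 CPM, a level Neurod1 did not reach there, 4.22% were lower in this way. In Cajal-Retzius cells, Nhlh2 was at 304, 289 and 293 CPM in WT, 270, 276 and 261 CPM in Het and 268, 307 and 317 CPM in KO. Het lay below WT, as 4.9% of genes did, and KO spanned it. The log2 change was -0.13 in Het (-0.35 to 0.09) and 0.02 in KO, and neither was called. The Het value was -0.06 with run 2 alone and -0.02 without the upper limits on nuclei.

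**Figure D4:**
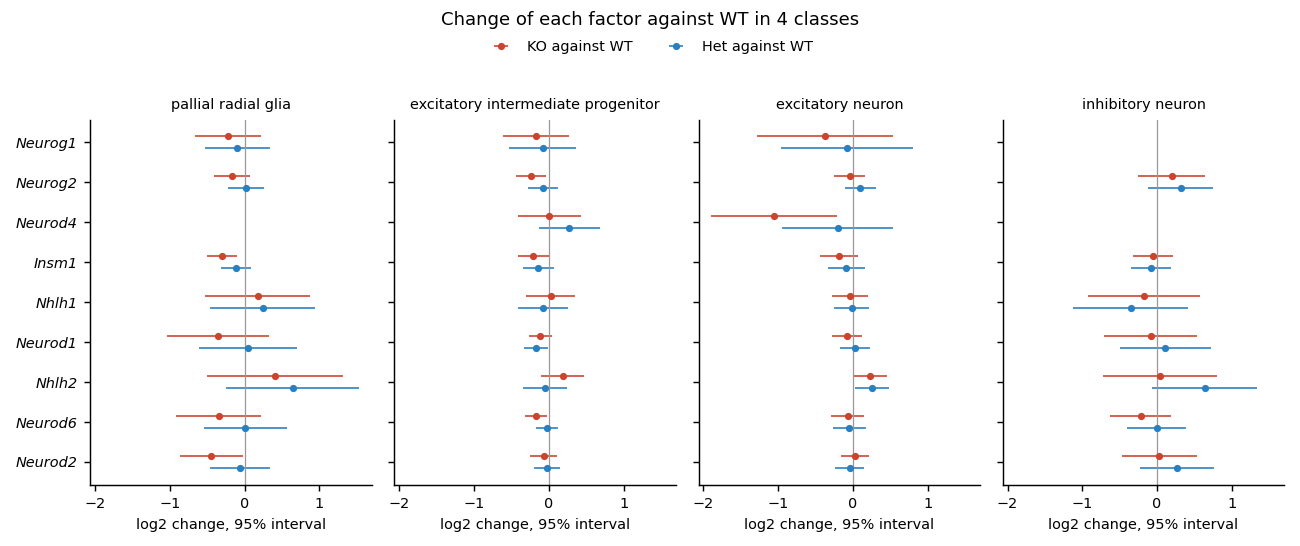
Fitted log2 changes of the members against WT in 4 classes, with 95% intervals, for KO and Het. The KO intervals of Neurod2 and Insm1 in pallial radial glia, of Neurog2 and Neurod6 in intermediate progenitors and of Neurod4 in excitatory neurons lie below 0, as does the Het interval of Neurod1 in intermediate progenitors. Those of Nhlh2 in excitatory neurons lie above 0, and no change passed the adjusted threshold.

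The same test within 5 equal stretches of the excitatory pseudotime called 0 of 37 pairs in KO (background 0.729%) and 0 of 37 in Het (background 0%). Of the 37, 6 had an unadjusted p under 0.05 in KO, all lower (7.64% of all pairs), and 0 in Het (2.81%). DESeq2 called 0 in either genotype (0.723% of all pairs in KO, 0.0013% in Het), with 3 and 0 under the unadjusted limit (4.28% and 0.781%). All edgeR calls in KO over the genes came from the last 2 stretches, at 0.806% and 2.77% of genes, and with the block they went from 123 to 610 and from 436 to 1348. The members under the unadjusted limit were Neurog2, Neurod2 and Insm1 in the first stretch, with log2 changes of -0.23, -0.57 and -0.25, Neurod1 in the third, with -0.18, and 2 in the second. Neurod2 in the first stretch was at 7.22 to 21.6 CPM, below the mean of the non-neural cluster, and its change was -0.22 with nuclei ordered by marker score, -0.25 without KO 2 and -0.86 with run 1 alone. Its KO embryos lay below WT, as 3.18% of genes did. That of Neurod1 in the third was 0.01 with the marker score, that of Insm1 in the first was -0.05 with run 1 alone, and that of Neurog2 in the first was -0.13 without WT 3 and -0.35 without WT 2. In the second stretch, which holds the peak of the neurogenins, Insm1 was at 95.4, 92.8 and 91.2 CPM in WT, 85.7, 87.9 and 80.3 CPM in Het and 67.0, 76.0 and 84.0 CPM in KO. Het and KO lay below every WT embryo, as 3.51% and 4.38% of genes did in that stretch. The KO log2 change was -0.28 (95% interval -0.45 to -0.10, edgeR adjusted p = 1.00). Neurog2 in that stretch was at 203, 173 and 206 CPM in WT, 194, 175 and 181 CPM in Het and 140, 168 and 176 CPM in KO. KO overlapped WT, with a KO log2 change of -0.24 (-0.42 to -0.06). On the inhibitory side, 0 of 16 pairs were called in KO (background 0.0659%) and 0 of 16 in Het (background 0%), with 1 at an unadjusted p under 0.05 in each (5.11% and 2.49% of all pairs). DESeq2 called 0 in either (0.125% and 0% of all pairs). That pair was Nhlh2 in the second stretch in both, at 0.620, 0.622 and 0.613 CPM in WT, 2.10, 0.639 and 1.45 CPM in Het and 1.26, 1.26 and 1.399 CPM in KO. All Het and KO embryos lay above WT, Het 2 by little, with log2 changes of 1.19 (0.26 to 2.11) and 1.09 (0.15 to 2.04) that rest on few UMIs and were not called. Among genes of at least 20 CPM, a level Nhlh2 did not reach, 2.19% in Het and 3.93% in KO were higher with no overlap in that stretch. All edgeR calls in KO over the genes were in the last stretch, at 0.2% of genes. DESeq2 also made 2 calls in the second stretch.

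The timing of the members was compared as the mean position per embryo. On the excitatory side, 0 of 9 members had KO positions apart from WT, where 24% of 7104 genes did, and 0 of 9 had Het positions apart, where 8.99% did. These genes had a mean of at least 20 CPM over the bins, a limit that holds for every share of positions given below. Neurog1, Neurod4, Nhlh1 and Nhlh2 did not reach it. The KO differences ran from -0.27 to 0.19 bins, with p of 0.3 to 0.9 in a two-sided exact permutation test whose smallest possible value is 0.1 with 3 against 3. Within replicate numbers, Neurod6 was later in KO in 3 of 3, by 0.08, 0.34 and 0.03 bins, Neurod1 was earlier in 3 of 3, with differences of -0.04, -0.07 and -0.03 bins, and Neurog1 was later in Het in 3 of 3. Each had p = 0.25 in an exact permutation of signs, the smallest that 3 pairs allow, and 47.1% of genes in KO and 27.5% in Het went one way in all numbers. The inhibitory position of Insm1 differed by 0.07 bins in KO (exact permutation p = 0.9). Neurog1 and Nhlh2 were apart in KO and Nhlh1 and Nhlh2 in Het, each at p = 0.1 in the exact permutation test. The means over the 9 embryos did not exceed 0.638, 1.596 and 1.78 CPM in any bin for Neurog1, Nhlh1 and Nhlh2. Of genes of at least 20 CPM, a level these members did not reach, 14.6% in KO and 8.47% in Het were apart in the same way.

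**Figure D5:**
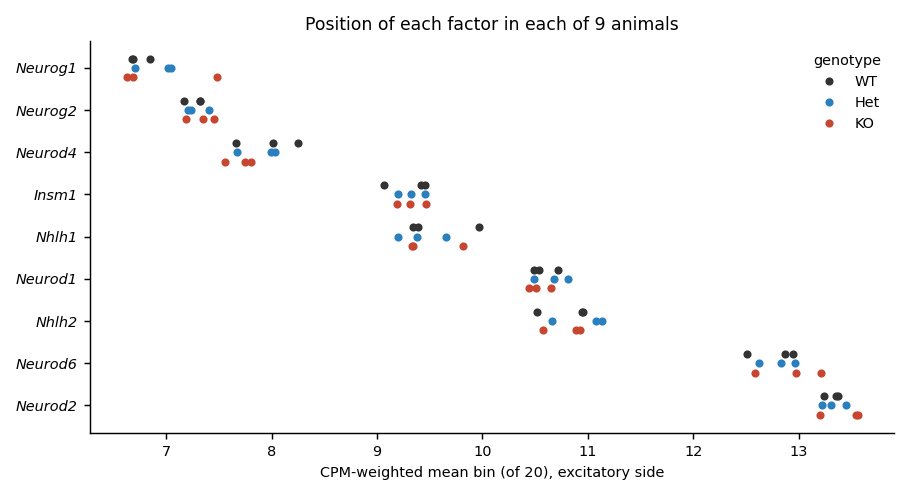
Mean positions of the members along the excitatory side in bins of 20, with 1 point per embryo coloured by genotype. The order runs from Neurog1 at 6.86 to Neurod2 at 13.4, and WT, Het and KO embryos overlap for each member.

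The other genes of the pathway were read in the same tests. Of a list of 9 genes (Hes1, Hes5, Hes6, Hey1, the 4 Id genes and Rest, most of them antagonists, although Hes6 acts in favour of neurogenesis), 3 E-protein genes, 12 listed other proneural and lineage factors, of which 11 are in the files and 5 were tested, and 13 genes known to act after the members, none was called in any class in either genotype. The single call was Rest in KO in the last stretch of the excitatory side. It encodes a repressor of neuronal genes and was at 16.9, 17.4 and 20.3 CPM in WT, 20.3, 23.3 and 20.1 CPM in Het and 25.8, 31.6 and 32.2 CPM in KO. KO embryos lay above every other embryo (11.9% of genes of at least 20 CPM were above WT in this way), with a log2 change of 0.75 (95% interval 0.50 to 1.00, edgeR adjusted p = 0.00415) in a stretch where 2.77% of genes were called. The positions of these genes on the excitatory side were also read. KO embryos were later than WT with no overlap for 2 of the 9 genes of the first list (Hey1 and Rest), 2 of the 3 E-protein genes (Tcf3 and Tcf12), 1 of 9 other factors with a position in every embryo (Atoh8) and 3 of the 13 later genes (Dll3, Btg2 and Cbfa2t2). None was earlier, where 10.8% of all genes were later and 13.2% earlier in this way. Rest was at 8.74, 8.02 and 8.53 bins in WT, 8.92, 9.32 and 8.63 in Het and 9.70, 9.66 and 9.77 in KO. A higher level in the last stretch moves this weighted mean later. The position of Rest therefore uses the same counts as its call and is not a separate result. In Het, 2 of the 13 later genes (Dll3 and Rnd3) were later and 1 of the 9 other factors (Tal2) was earlier. Of the same 7104 genes, 3.91% were later and 5.08% earlier. On the inhibitory side, Id4 and Rest of the first list were later in KO and Hes6 was earlier. Of the 13 genes, Btg2 was later and Dll1 earlier (6.09% later and 8.47% earlier of 7049 genes of at least 20 CPM). In Het there, Insm2 and Eomes were later, and Hey1 and Nrp1 were earlier (3.33% and 5.14% of the same 7049 genes). The Rest call was lost with run 1 alone (log2 change 0.66, edgeR adjusted p = 0.212) and with nuclei ordered by marker score (0.40, adjusted p = 0.0603).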

How the data were processed

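The authors isolated nuclei from E14 forebrains, made combinatorially barcoded libraries and aligned them to mm10, and they deposited 1 matrix of expected counts (UMIs) per library. Between 6.70% and 8.71% of entries per library were not whole numbers, and the treatment of strand and of overlapping genes in counting was not given in these sources. The submitters' processing notes name Seurat 4.3.0, DESeq2 1.38.3 and Scanpy 1.12.0. Groups came from the sample titles, since the genotype tag reads WT for all 9 libraries of run 1.

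Nuclei were kept with 800 to 6000 UMIs, 300 to 3000 genes, at most 1% mitochondrial counts and a log ratio of genes to UMIs of at least 0.9, as in the study. The barcodes with the highest Scrublet doublet scores, 5% of all deposited barcodes of a library, were also removed. Some of them already failed the other limits. Scanpy 1.11.5 (Python 3.11.15) was run with 3000 variable genes without the members, 50 components, 20 neighbours and Leiden resolution 1. The markers of cell classes were listed first, and the rule that turns them into cluster names was set after seeing the clusters. Diffusion pseudotime was cut into 20 equal bins per side, and into 5 (excitatory) or 3 (inhibitory) equal stretches for testing.

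Counts were summed per embryo over both runs and rounded to whole numbers. They were tested with edgeR 4.0.16 (quasi-likelihood, TMM, its filter on low counts, all 9 embryos in the fit, R 4.3.3) or, as an alternative, DESeq2 1.42.0. The edgeR steps were tested on simulated data. All 9 members were named in every class, the pathway genes by list, and the 3 most alike genes by correlation. Members and lists were chosen with earlier results of these data known. The embryos of a genotype are separate animals by the titles. Same-numbered embryos deviated together, with every r over 0.1 (0.107 to 0.317), in pallial radial glia, intermediate progenitors, excitatory neurons and inhibitory neurons, and in the 4 other classes at least 1 pair was below that. In subpallial radial glia and inhibitory progenitors every such r was positive (0.0978 to 0.295 and 0.0682 to 0.202). The study's methods name 3 litters, and the labels tie no number to a litter. The alternatives were RLE size factors, no filter on low counts, only the compared embryos, a replicate block, single runs, embryos left out in turn, other clusterings, no upper limits on nuclei, 10 bins, peak bins and an order by marker score. Positions within replicate numbers were added after seeing the data.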

Additional observations from a re-analysis of the deposited data

Results flagged for a closer look

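In Het against WT, the Nhlh2 levels did not overlap in 2 classes. In excitatory neurons it was higher, at 10.9, 10.1 and 10.3 CPM in Het against 9.10, 7.57 and 9.82 CPM in WT. In Cajal-Retzius cells it was lower, at 270, 276 and 261 CPM in Het against 304, 289 and 293 CPM in WT. Neither difference was called by edgeR with Benjamini-Hochberg adjustment, the 95% interval of the log2 change in Cajal-Retzius cells (-0.35 to 0.09) included 0, and without the upper limits on UMIs and genes the changes were 0.05 and -0.02. The difference between the classes was not tested. Among genes of at least 20 CPM, 4.87% were higher with no overlap in excitatory neurons and 4.9% were lower in Cajal-Retzius cells.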

How the results depend on the processing

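The number of members called stayed at 0 under all 17 to 19 alternatives of each comparison, with a smallest adjusted p of 0.0570 over classes (Insm1 in excitatory neurons with the block) and 0.0854 over excitatory stretches in KO. Over those alternatives the KO log2 change ran from -0.41 to -0.04 for Insm1 in pallial radial glia, from -0.31 to -0.13 for Neurog2 and from -0.34 to -0.12 for Neurod6 in intermediate progenitors, the first being nearest 0 and the last farthest from it with run 1 alone. With the replicate number as a block, 0 members were called. Of all pairs in KO, 1.45% over classes, 2.53% over excitatory stretches and 0.543% over inhibitory stretches were called. In Het these shares were 0.0118%, 0.0139% and 0.00206%. Before adjustment, 9 of 49 class pairs and 12 of 37 excitatory pairs in KO had an edgeR p under 0.05, against 9.77% and 11.995% of all pairs. The block changed no call of a member. Among all genes, the KO calls in excitatory neurons went from 177 to 368 with DESeq2.

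The excitatory order held all 9 ranks with 10 bins, the marker score, either run and each embryo left out, and 7 with peak bins. Members with the same peak bin were ranked by their mean position. Neurog1, Neurog2 and Insm1 shared bin 7, Neurod4 and Nhlh1 bin 8, and Neurod1 and Nhlh2 bin 9. The count with peak bins is therefore partly set by the order it was compared with. Members apart in position on the excitatory side in KO were 1 with the marker score, 1 with run 1 and 0 to 2 with an embryo left out (2 without KO 1, 1 without KO 2, WT 1 or WT 2), where 23.0%, 14.8% and 31.1% to 35.5% of genes were. In Het they were 0 to 2 with an embryo left out (2 without Het 3, 1 without WT 2), where 15.7% to 22.0% of genes were. With an embryo left out, 2 embryos are set against 3, so groups part more easily. On the inhibitory side, 3 members kept their rank with the marker score, 4 with run 1, 3 with run 2, 3 with peak bins and 4 to 9 with an embryo left out (4 without KO 1). Members apart there were 1, 0 and 4 in KO and 0, 0 and 1 in Het with the marker score, run 1 and run 2, and 2 to 3 in KO and 2 to 4 in Het with an embryo left out (4 without Het 2). The shares of genes apart were 11.3% to 15.6% in KO and 8.67% to 9.22% in Het for the former, and 22.4% to 26.1% and 15.9% to 19.4% with an embryo left out. Within replicate numbers, as a block chosen after seeing the data, members that went one way in all 3 numbers were counted. They were 2 in KO and 1 in Het on the excitatory side and 5 in each on the inhibitory side. Of genes of at least 20 CPM, 47.1% and 27.5% did so on the excitatory side and 34.5% and 26.2% on the inhibitory side. The cause was not tested. On the inhibitory side only Insm1 reached that level, and it was not among the 5 in either genotype. Neurog1 and Neurod4 rest on 814 and 388.5 UMIs in intermediate progenitors over all embryos.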

Other observations

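A cluster left without a name, led by Snhg11, Slc17a6 and Tcf7l2 and holding 5909 nuclei, also carried members of the set. Neurod1 was at 19.2 CPM there (15.6 to 23.7 over 9 embryos) and Nhlh2 at 19.96 CPM (14.6 to 27.0), both above every embryo's level in inhibitory neurons. Another cluster without a name, of 3972 nuclei led by Lhx6, Lhx8 and Nkx2-1, had 28.6 CPM of Insm1. It carried 8 of 8 inhibitory neuron markers, so the 13.0 CPM given for inhibitory neurons leaves these nuclei out. These values are descriptions, since the clusters were formed from the same nuclei.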
